A study of Mus musculus with 12 samples.

Results

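The SLC25 mitochondrial carriers were described here through every gene whose symbol is Slc25a followed by a number. There were 47 such genes among the 24062 entries of both expression tables. RNA was sequenced from the mouse line BV2, immortalised microglia, the macrophages that live in brain tissue. Spi1, which encodes the myeloid transcription factor PU.1, was lowered with a short hairpin RNA or raised from a mouse cDNA, both transiently, and cells were sorted by flow cytometry. Spi1 knockdown had 3 libraries and its scrambled controls had 3, while Spi1 overexpression had 3 and its empty-frame controls had 3. All groups came from this line and 1 culture medium, and knockdown and overexpression share no control library. Whether a group's libraries were separate cultures is not stated, and p-values therefore cover only the spread between libraries, possibly technical.

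SLC25 proteins form the largest family of solute transporters in mitochondria. Most sit in the inner membrane and exchange nucleotides, phosphate, keto acids, amino acids or cofactors between the matrix and the cytosol, so that respiration, biosynthesis and cytosolic metabolism stay connected. They are encoded in the nucleus, made in the cytosol and inserted through the TIM22 translocase. In macrophages and microglia, citrate export and ADP/ATP exchange link mitochondria to fatty acid synthesis and to the energy demands of activation.

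Levels are FPKM, reads per gene kilobase and library megaread, and libraries held 22.3 to 33.1 megareads on genes. Spi1 was at 50.9, 42.4 and 52.3 FPKM in the knockdown libraries, against 159, 169 and 168 FPKM in the scrambled controls. It was at 287, 224 and 206 FPKM in the overexpression libraries, against 158, 117 and 131 FPKM in the empty controls. The targeted gene thus stood on the side its label gives in all 6 treated libraries. The summed level of 8 macrophage markers was 726 to 828 FPKM in knockdown, 992 to 1042 FPKM in scrambled controls, 861 to 1005 FPKM in overexpression and 845 to 944 FPKM in empty controls. Of 7 markers tested, 4 were lower and 1 higher in knockdown (limma, adjusted), where 8.86% of all genes were lower and 17.4% higher, and their part in the carrier results was not tested. In bulk libraries, fewer cells of a type and less RNA per cell cannot be told apart. Marker sets of neurons, astrocytes, oligodendrocytes, fibroblasts and B cells summed to at most 0.606 FPKM in every library, with Snap25, Syt1, Rbfox3 and Aqp4 at 0 throughout. T cell markers summed to at most 4.26 FPKM and neutrophil markers to at most 5.17 FPKM. Among endothelial markers only the receptor gene Kdr was tested, and the set summed to 74.3 to 78.9 FPKM in knockdown, 57.3 to 61.7 FPKM in scrambled controls, 55.4 to 62 FPKM in overexpression and 60.9 to 64.2 FPKM in empty controls. Kdr was higher in knockdown (limma, BH adjusted p = 0.00737), and its part in the carrier results was not tested.

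With Spi1 lowered, 4 of 36 tested carriers differed from the scrambled controls, which is 11.1% of them, against 26.3% of all genes tested. Slc25a32, the carrier linked to folate and flavin import, was 2.3-fold higher in knockdown than in scrambled controls. Its mean in the empty controls, 6.65 FPKM, was nearer to knockdown than to the scrambled controls. Slc25a15, the ornithine carrier, and Slc25a17, a peroxisomal cofactor carrier, were 1.54-fold and 1.21-fold higher, as ratios of mean FPKM. The call of Slc25a17 was lost in 8 of 15 alternative settings. Slc25a4, which encodes ADP/ATP carrier isoform ANT1, was at 0.699 of its control level. No carrier passed when Spi1 was raised, and 0.0% of all genes did.

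For the carriers on which the results turn, the promoters are shown first, since PU.1 is a DNA-binding factor whose level was changed. RefSeq promoters on GRCm38.p6, running from 250 bases before a gene's start to 50 bases after it, matched 36 of the 47 members with 46 start sites. Slc25a32 is not among them. The lines below give the other carriers that passed and Slc25a5, the paralogue of Slc25a4, 5′ to 3′, each 300 bases long. Capitals mark the ETS core CCGGAAG in Slc25a4 and Slc25a17, the PU.1 core GAGGAA (on the opposite strand) in Slc25a5, and the E-box CACGTG at the second start of Slc25a15.
Slc25a4 chr8:46211013-46211312 minus strand: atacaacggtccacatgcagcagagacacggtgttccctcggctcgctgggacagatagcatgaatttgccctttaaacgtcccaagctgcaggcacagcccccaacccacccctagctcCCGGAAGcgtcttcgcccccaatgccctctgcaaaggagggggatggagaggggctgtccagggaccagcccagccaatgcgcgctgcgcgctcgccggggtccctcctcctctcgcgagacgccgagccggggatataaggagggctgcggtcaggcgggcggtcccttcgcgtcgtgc
Slc25a5 chrX:36795347-36795646 plus strand: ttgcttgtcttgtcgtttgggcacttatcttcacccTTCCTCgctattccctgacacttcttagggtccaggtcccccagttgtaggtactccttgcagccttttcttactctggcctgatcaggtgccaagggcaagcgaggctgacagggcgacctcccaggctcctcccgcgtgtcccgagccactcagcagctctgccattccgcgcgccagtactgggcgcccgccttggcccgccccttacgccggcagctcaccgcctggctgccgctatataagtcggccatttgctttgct
Slc25a15 first start chr8:22398572-22398871 minus strand: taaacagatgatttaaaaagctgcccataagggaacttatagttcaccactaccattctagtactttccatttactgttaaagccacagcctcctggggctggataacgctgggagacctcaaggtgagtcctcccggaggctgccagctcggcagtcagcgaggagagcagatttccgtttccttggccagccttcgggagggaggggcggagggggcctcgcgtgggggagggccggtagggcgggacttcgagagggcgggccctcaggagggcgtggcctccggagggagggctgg
Slc25a15 second start chr8:22398228-22398527 minus strand: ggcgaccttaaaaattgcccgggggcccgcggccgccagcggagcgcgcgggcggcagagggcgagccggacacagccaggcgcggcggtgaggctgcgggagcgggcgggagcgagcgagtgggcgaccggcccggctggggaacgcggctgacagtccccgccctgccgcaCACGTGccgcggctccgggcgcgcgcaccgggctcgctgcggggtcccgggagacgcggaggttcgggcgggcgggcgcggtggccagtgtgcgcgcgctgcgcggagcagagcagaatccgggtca
Slc25a17 chr15:81360716-81361015 minus strand: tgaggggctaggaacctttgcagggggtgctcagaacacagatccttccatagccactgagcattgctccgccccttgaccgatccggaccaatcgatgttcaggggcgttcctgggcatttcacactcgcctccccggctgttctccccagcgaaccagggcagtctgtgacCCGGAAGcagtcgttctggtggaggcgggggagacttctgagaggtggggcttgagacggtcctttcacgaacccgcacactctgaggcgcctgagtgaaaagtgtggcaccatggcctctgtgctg

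The ETS core starts at position -130 in Slc25a4 and at -77 in Slc25a17, counted from the gene's start. The PU.1 core of Slc25a5 is at -214, and the E-box of Slc25a15 is at -77 of its second start. Both strands were searched, and each printed window holds at most 1 of these matches, so none overlap. GAGGAA was found in 9 of the 46 member promoters, against 28.3% of 32851 mouse promoters of the same length. CCGGAAG was found in 7 of the 46, against 8.86% of all, and CACGTG in 8 of the 46, against 7.15% of all. Some of the 46 windows overlap, and the E-boxes at -54 of start 1 and -184 of start 2 of Slc25a14 are the same site. The printed windows held 60.7% to 79% G or C, against a median of 52.7% over all promoters, and these shares were not adjusted for it. The longer PU.1 motif GAGGAAGT, which contains the core, was in 0 of the 46, against 3.2% of all promoters. These matches describe letters in the windows and say nothing of binding.

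Carrier levels spanned several orders of magnitude per length of gene. Of the 47 members, 45 were above 0 in some library, while Slc25a21 and Slc25a48 were listed at 0 in all 12. A mean of at least 1 FPKM, the limit for testing, was met by 36 members in the knockdown experiment and by 35 in the overexpression experiment. Slc25a47 met it in the knockdown experiment and not in the other, with 1.43, 1.76 and 0.976 FPKM in knockdown and 0.983, 1.44 and 1.3 FPKM in scrambled controls. Of the members tested in both, Slc25a35 was nearest to the limit, with a mean of 1.27 FPKM over 12 libraries, and Slc25a53, at 0.581 FPKM, was the highest member outside it. The germline ADP/ATP carrier Slc25a31 averaged 0.0127 FPKM and the neuronal uncoupling relative Slc25a27 averaged 0.0421 FPKM. The other members outside the limit, Slc25a2, Slc25a18, Slc25a29, Slc25a34, Slc25a41 and Slc25a54, had means of 0.0144 to 0.501 FPKM.

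**Figure D1:**
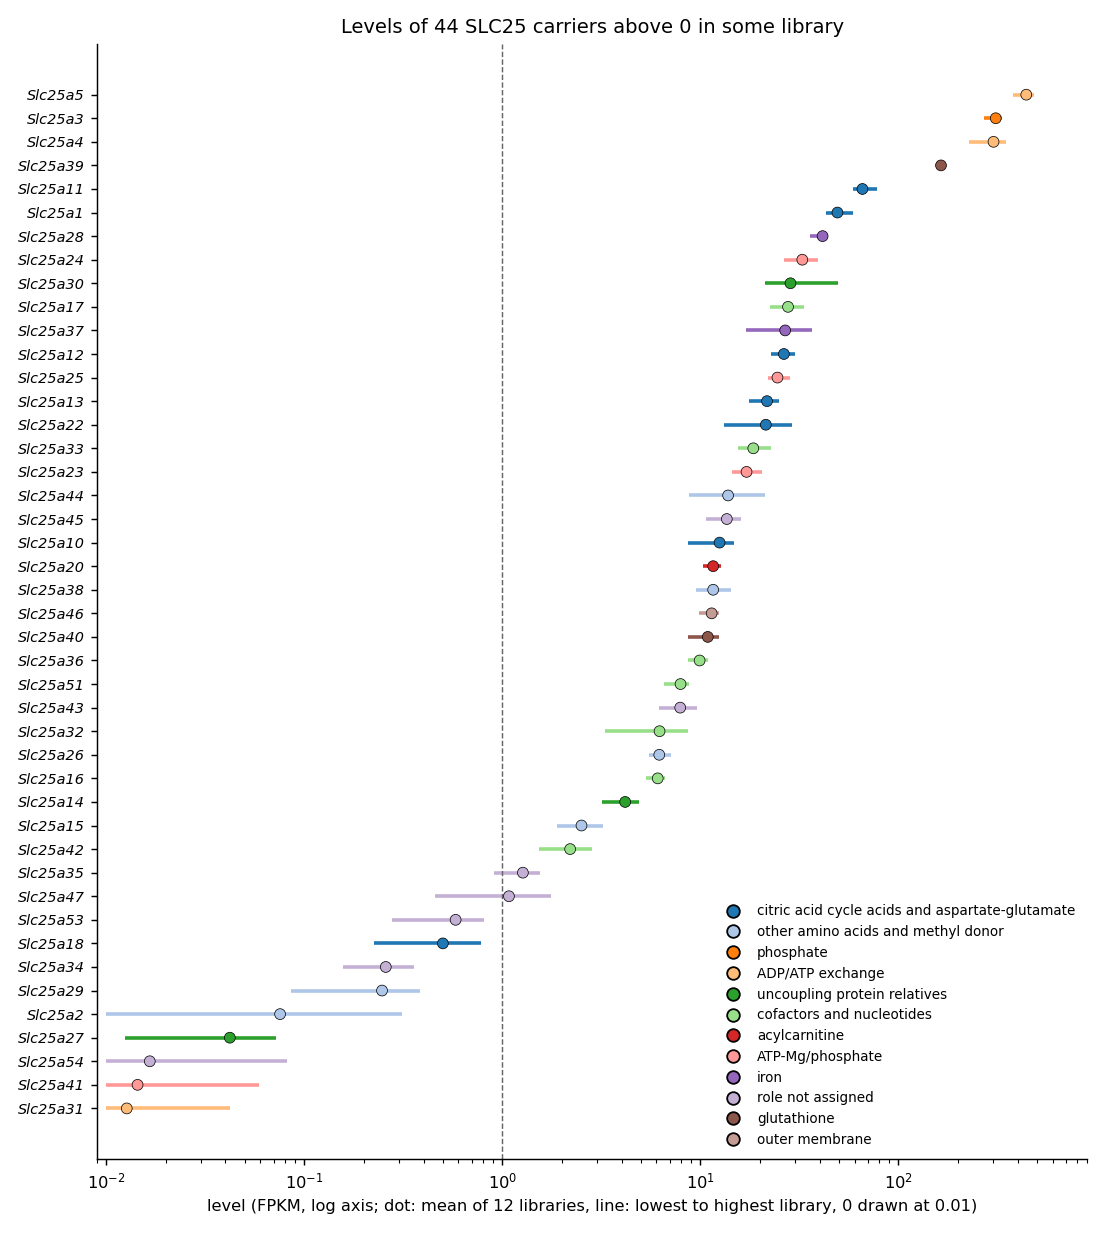
Level of 44 carriers above 0, in FPKM on a log axis, with the mean of 12 libraries as a dot, the lowest to highest library as a line and the role as colour. The dashed line marks 1 FPKM, and Slc25a5, Slc25a3, Slc25a4 and Slc25a39 stand apart at the top with means of 442, 310, 302 and 164 FPKM.

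Carriers that feed oxidative phosphorylation were the most abundant. Slc25a5, which encodes ANT2, averaged 442 FPKM over 12 libraries, the phosphate carrier gene Slc25a3 averaged 310 FPKM and Slc25a4 averaged 302 FPKM. These 3 genes made up 58.4 ± 0.392% of the summed family level in knockdown and 60.3 ± 0.469% in scrambled controls. Their share was 59.3 ± 1.5% in overexpression and 59.6 ± 1.58% in empty controls (SD, n = 3 libraries each). The whole family held 0.359 ± 0.00161% of all FPKM in knockdown and 0.37 ± 0.0111% in scrambled controls. It held 0.371 ± 0.0269% in overexpression and 0.378 ± 0.0183% in empty controls.

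With Spi1 lowered, 4 of 36 tested carriers passed limma with Benjamini-Hochberg (BH) adjustment at 0.05, where 26.3% of 11214 genes passed. Higher in knockdown were 3 members, against 17.4% of all genes, and lower was 1 member, against 8.86%. The median log2 fold change, on the log2(FPKM + 1) scale, was 0.0406 over tested members and 0.0723 over all genes. At an unadjusted p under 0.05 there were 9 members, against 40.4% of genes. All 3 knockdown libraries lay outside the 3 scrambled controls for 10 members, 6 above and 4 below, against 45.4% of genes, 30.3% above and 15.1% below.

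Slc25a32 lies on chromosome 15, bases 39091231 to 39112716 of the minus strand in GRCm38 (mm10), with 7 exon blocks. Its product is known in mammals as a carrier of folates and of flavin adenine dinucleotide into mitochondria, where they serve one-carbon metabolism and flavoenzymes. Slc25a32 was at 7.62, 8.61 and 7.85 FPKM in knockdown, against 3.73, 3.3 and 3.41 FPKM in scrambled controls. Every knockdown library was higher than every scrambled control. Mean levels were 8.02 ± 0.519 FPKM in knockdown and 3.48 ± 0.222 FPKM in scrambled controls (SD, n = 3 each). The ratio of these means was 2.3. On the log2(FPKM + 1) scale, which shrinks changes of low genes, the log2 fold change was 1.01 (SE 0.071, limma, BH adjusted p = 0.00115). Slc25a32 was at 6.99, 5.47 and 7.71 FPKM in overexpression, against 7.62, 4.9 and 7.42 FPKM in empty controls. Both groups of that experiment overlapped, and all 6 of its libraries stood above the scrambled controls. A low level in scrambled controls and a rise in knockdown cannot be told apart across separately deposited experiments.

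G2/M genes of the cell cycle were also lowest in the scrambled controls. The 16 listed genes were all higher in knockdown (limma, BH), against 17.4% of all genes, with a median log2 fold change of 0.969, and 5 passed without the libraries numbered 2, where 4.0% of all genes did. Their summed level was 611 to 680 FPKM in knockdown, 268 to 393 FPKM in scrambled controls, 467 to 658 FPKM in overexpression and 525 to 717 FPKM in empty controls. The part of cell cycle state in the Slc25a32 difference was not tested.

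Slc25a4 lies on chromosome 8, bases 46206797 to 46211284 of the minus strand, with 4 exon blocks. ANT1 exchanges matrix ATP for cytosolic ADP and is the isoform best known from heart and skeletal muscle, while ANT2, from Slc25a5, is typical of dividing cells. Slc25a4 was at 240, 227 and 250 FPKM in knockdown, against 344, 332 and 348 FPKM in scrambled controls. The knockdown libraries were the lowest 3 of all 12. The log2 fold change was -0.52 (SE 0.063, limma, BH adjusted p = 0.00341), from means of 239 ± 11.4 FPKM in knockdown and 341 ± 8.61 FPKM in scrambled controls. In overexpression Slc25a4 was at 314, 303 and 296 FPKM, against 322, 332 and 315 FPKM in empty controls. These groups did not overlap either, with overexpression the lower by a narrow margin.

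Slc25a5 did not pass in knockdown. Its level was 432, 475 and 450 FPKM in knockdown, against 378, 451 and 448 FPKM in scrambled controls, and the groups overlapped. Its log2 fold change was 0.09 with a 95% interval of -0.11 to 0.29 (limma, BH adjusted p = 0.458). In overexpression Slc25a5 was at 482, 407 and 445 FPKM, against 475, 406 and 456 FPKM in empty controls, again with overlap. About 8.33% of its 100-base windows also occur in transcripts of other genes, so its reads are less certain than those of Slc25a4, which shares none.

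Slc25a4 made up 34.5 ± 1.95% of the summed Slc25a4 and Slc25a5 level in knockdown and 44.6 ± 2.74% in scrambled controls. The share was 40.7 ± 1.73% in overexpression and 42.1 ± 2.51% in empty controls (SD, n = 3 libraries each, no test). The sum of both genes was 691 ± 16.8 FPKM in knockdown and 767 ± 39.0 FPKM in scrambled controls. In overexpression it was 749 ± 43.4 FPKM and in empty controls 769 ± 29.2 FPKM.

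**Figure D2:**
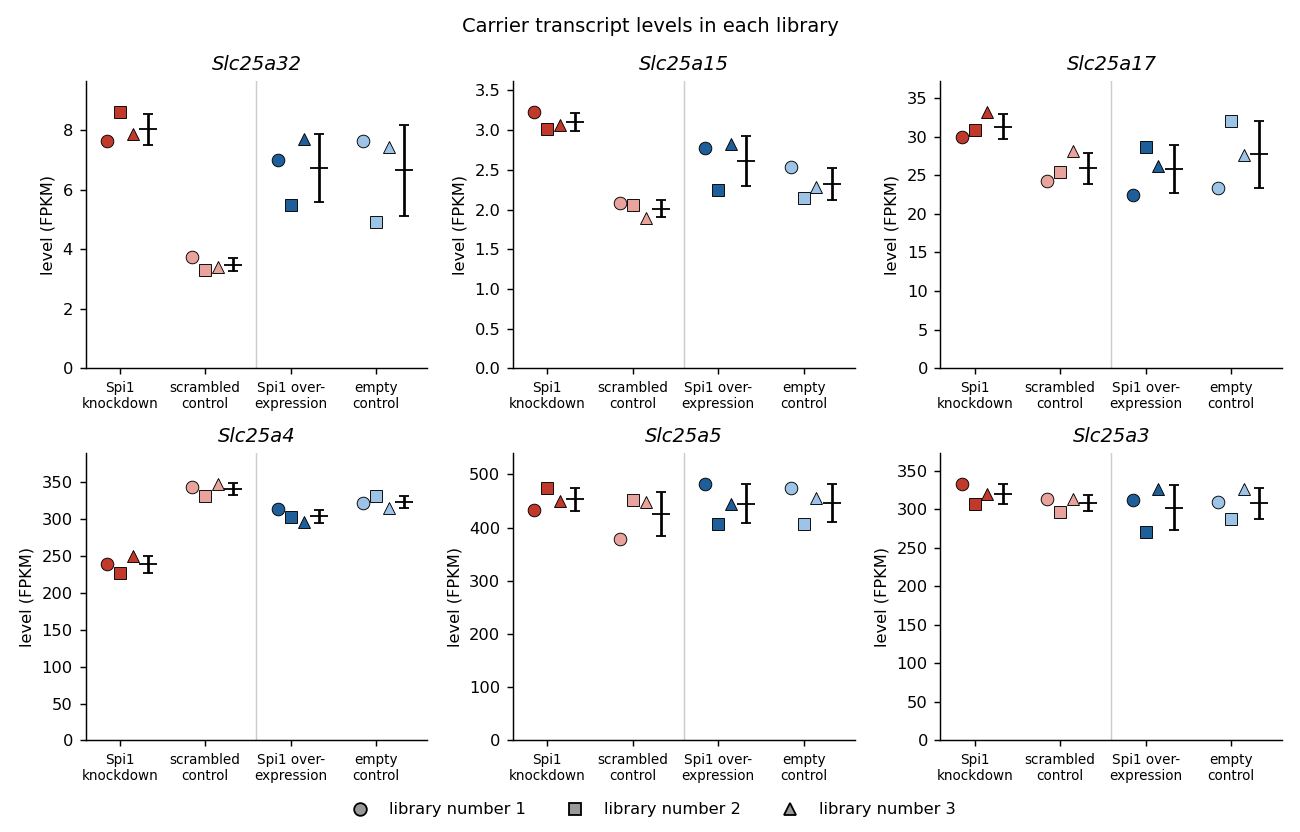
Level in FPKM of the 4 carriers that passed in knockdown and of Slc25a5 and Slc25a3, with 1 point per library, the library number as shape, and mean and SD (n = 3) beside each group. The 3 knockdown points of Slc25a32 lie at 7.62 to 8.61 FPKM, above scrambled controls at 3.3 to 3.73 FPKM, and 4 of the 6 libraries of the overexpression experiment lie between these ranges. The knockdown points of Slc25a4 lie below all other libraries.

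Slc25a15 lies on chromosome 8, bases 22375551 to 22398597 of the minus strand. It encodes the carrier that exchanges ornithine and citrulline across the inner membrane, a step of the urea cycle in liver. Slc25a15 was at 3.23, 3.02 and 3.06 FPKM in knockdown, against 2.08, 2.06 and 1.89 FPKM in scrambled controls. Knockdown libraries were all higher, at a low level that rested on 159 to 349 reads per library. The means were 3.1 ± 0.116 FPKM in knockdown and 2.01 ± 0.106 FPKM in scrambled controls, a ratio of 1.54. On the log2(FPKM + 1) scale the log2 fold change was 0.45 (SE 0.061, limma, BH adjusted p = 0.00409). Slc25a15 was at 2.78, 2.25 and 2.82 FPKM in overexpression, against 2.54, 2.15 and 2.28 FPKM in empty controls, and these groups overlapped. All 6 libraries of the overexpression experiment lay between the scrambled controls and the knockdown libraries.

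Slc25a17 lies on chromosome 15, bases 81318911 to 81360812 of the minus strand, and its product resides in peroxisomes, where it carries coenzyme A, flavin and nicotinamide cofactors. Slc25a17 was at 30, 30.9 and 33.2 FPKM in knockdown, against 24.2, 25.4 and 28.1 FPKM in scrambled controls. Knockdown was higher throughout, by less than the other carriers that passed. The log2 fold change was 0.27 (SE 0.077, limma, BH adjusted p = 0.0395), from means of 31.3 ± 1.63 FPKM in knockdown and 25.9 ± 1.99 FPKM in scrambled controls. In overexpression Slc25a17 was at 22.5, 28.6 and 26.2 FPKM, against 23.3, 32 and 27.6 FPKM in empty controls, with overlap. The knockdown call was lost with median-of-ratios scaling (limma, BH adjusted p = 0.0772) and when any library but scrambled control 3 was left out, with p from 0.0647 to 0.128.

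**Figure D3:**
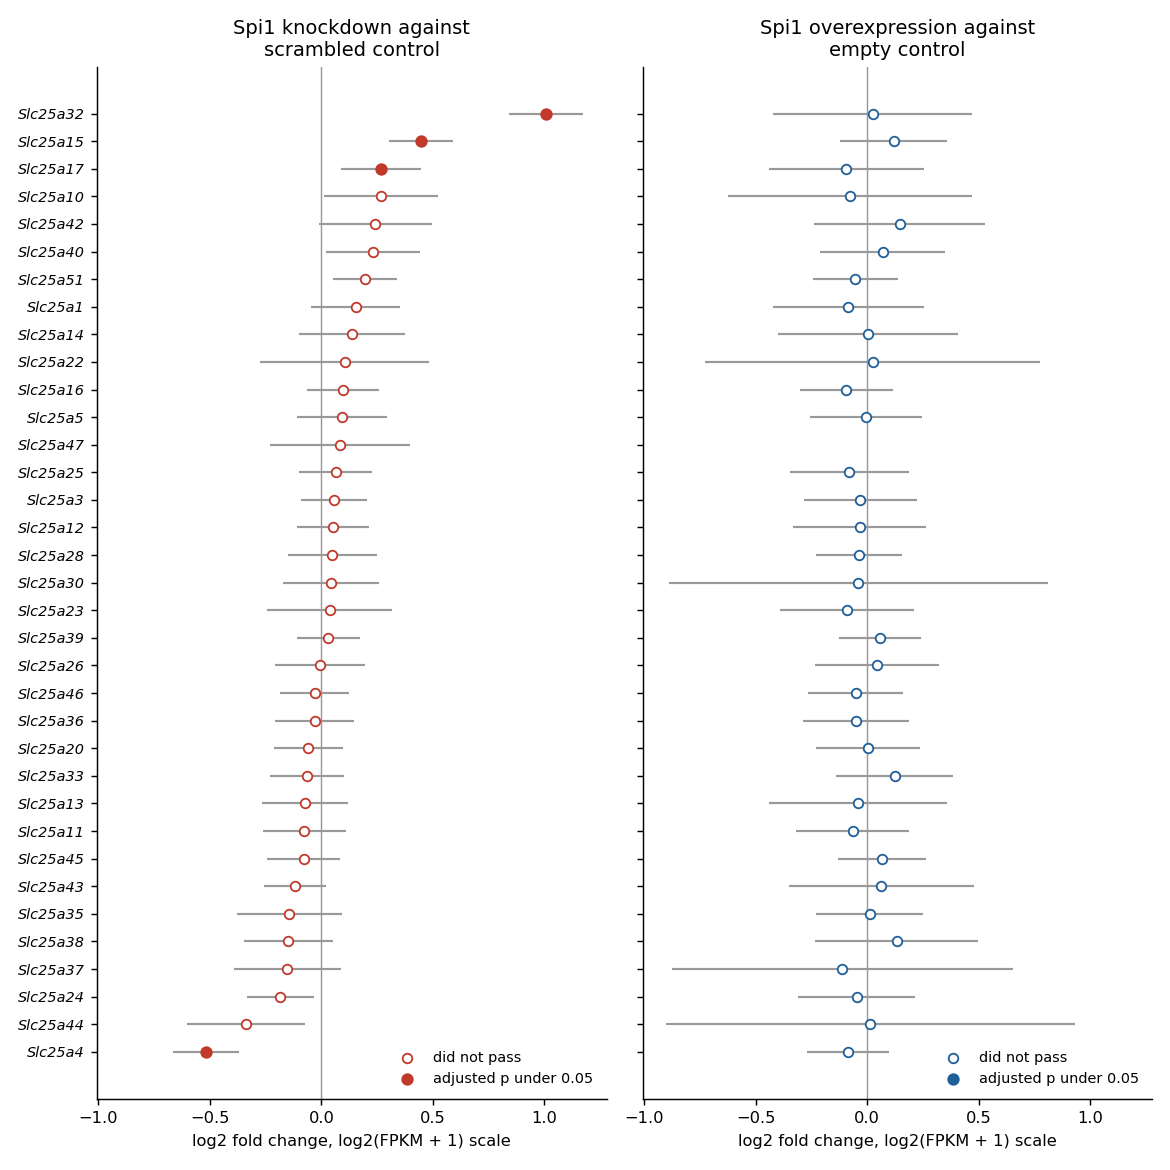
Log2 fold change on the log2(FPKM + 1) scale of 35 tested carriers, with 95% intervals from limma, in knockdown against scrambled control on the left and overexpression against empty control on the right. Filled points mark an adjusted p under 0.05, and they are Slc25a32, Slc25a15, Slc25a17 and Slc25a4 on the left and none on the right.

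Several carriers came close to the threshold in knockdown without passing. Slc25a51, the mitochondrial NAD carrier, had a log2 fold change of 0.20 (limma, BH adjusted p = 0.0518), with 7.99, 8.25 and 7.85 FPKM in knockdown and 7.06, 7.08 and 6.52 FPKM in scrambled controls. Slc25a44, a carrier of branched-chain amino acids, was at 10.5, 12.2 and 10.2 FPKM in knockdown and 12.5, 16.5 and 13.6 FPKM in scrambled controls, a log2 fold change of -0.34 (limma, BH adjusted p = 0.0631). Slc25a24, an ATP-Mg/phosphate carrier, was at 31.7, 34.1 and 33.8 FPKM in knockdown and 36.3, 38.1 and 39.4 FPKM in scrambled controls, a log2 fold change of -0.18 (limma, BH adjusted p = 0.0715). In each of these 3 genes the groups did not overlap, as in 45.4% of all genes. Slc25a40, a relative of the glutathione carrier, and Slc25a10, the dicarboxylate carrier, had log2 fold changes of 0.23 and 0.27 (limma, BH adjusted p = 0.0956 and 0.111). Their groups did not overlap either.

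Libraries with the same number deviated together, and with the number as a replicate block 8 carriers passed in knockdown, 5 higher and 3 lower. Over all genes 45.3% passed, 30.6% higher and 14.7% lower. Slc25a51 and Slc25a40 joined those that were higher, and Slc25a44 and Slc25a24 joined Slc25a4 among those that were lower (limma with replicate block, BH adjusted p = 0.0196, 0.0335, 0.00924 and 0.0217). Median-of-ratios scaling changed the split to 2 carriers higher and 3 lower, as Slc25a17 was lost while Slc25a24 and Slc25a44 were gained, against 11.5% of genes higher and 12.6% lower.

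Carriers of citric acid cycle acids and of aspartate and glutamate had no member past the threshold. Of 8 such members 6 were tested and 0 passed in knockdown, against 26.3% of all genes, with log2 fold changes from -0.08 to 0.27. Slc25a11, the oxoglutarate carrier of the malate-aspartate shuttle, was at 62.8, 59 and 67.4 FPKM in knockdown and 64.9, 62.7 and 72 FPKM in scrambled controls, with overlap. Slc25a1, which exports citrate for fatty acid synthesis, averaged 52.6 ± 3.62 FPKM in knockdown and 47.2 ± 4.07 FPKM in scrambled controls, and did not pass. The paired aspartate-glutamate carriers Slc25a12 and Slc25a13 averaged 26.8 ± 0.841 and 21 ± 1.53 FPKM in knockdown, against 25.9 ± 1.65 and 22.1 ± 1.68 FPKM in scrambled controls.

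Phosphate, iron, glutathione and acylcarnitine carriers did not pass either. Slc25a3 was at 333, 307 and 320 FPKM in knockdown and 314, 296 and 313 FPKM in scrambled controls, and the groups overlapped. Slc25a39, needed for glutathione import in mammalian cells, was at 168, 157 and 167 FPKM in knockdown and 162, 155 and 163 FPKM in scrambled controls. Its 95% interval of the log2 fold change ran from -0.11 to 0.17, so a change of the size of Slc25a4 lies outside it. The mitoferrin gene Slc25a28, an iron importer, was at 40.1, 41.3 and 43.5 FPKM in knockdown and 35.7, 42 and 43.2 FPKM in scrambled controls, with overlap. Slc25a37, the mitoferrin used by red cell precursors, averaged 26.0 ± 2.07 FPKM in knockdown and 29.1 ± 3.73 FPKM in scrambled controls.

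Slc25a20, which brings acylcarnitines to fatty acid oxidation, was at 11.5, 11.2 and 12.6 FPKM in knockdown and 12.2, 12 and 12.7 FPKM in scrambled controls. Slc25a46, an outer membrane protein tied to mitochondrial shape, was at 11.8, 10.9 and 12.4 FPKM in knockdown and 11.9, 12.1 and 11.8 FPKM in scrambled controls. Slc25a30, a relative of the uncoupling proteins, was at 25.1, 23.6 and 28.1 FPKM in knockdown and 27.4, 23.3 and 23.8 FPKM in scrambled controls. In all 3 genes the groups overlapped. Slc25a45 was at 11.9, 11.3 and 10.7 FPKM in knockdown and 11.4, 12.8 and 11.7 FPKM in scrambled controls, also with overlap. Exons of Slc25a35 share 31.3% of their bases with Rangrf on the opposite strand, and without strand its 1.13 ± 0.211 FPKM in knockdown and 1.35 ± 0.221 FPKM in scrambled controls cannot be assigned to it alone.

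Among the 8 cofactor and nucleotide carriers, all tested, 2 were higher in knockdown and 0 lower, against 17.4% and 8.86% of all genes. These were Slc25a32 and Slc25a17, of which Slc25a17 lost its call in 8 of 15 alternatives. The role's median log2 fold change was 0.146, against 0.0723 over all genes. The coenzyme A carrier Slc25a42, which did not pass, was at 2.37, 2.19 and 2.53 FPKM in knockdown and 2.34, 1.53 and 1.72 FPKM in scrambled controls, with overlap. The pyrimidine nucleotide carriers Slc25a33 and Slc25a36 had log2 fold changes of -0.06 and -0.03 (limma, BH adjusted p = 0.532 and 0.795). Of the 6 carriers of other amino acids and of the methyl donor, 4 were tested and Slc25a15 alone passed, against 26.3% of all genes. The glycine carrier Slc25a38, used in haem synthesis, was at 10.7 ± 0.898 FPKM in knockdown and 12 ± 0.96 FPKM in scrambled controls and did not pass.

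With Spi1 raised, 0 of 35 tested carriers passed in limma with BH adjustment, where 0.0% of 11217 genes passed. At an unadjusted p under 0.05 there were 0 members, against 1.09% of genes, and limma-voom on recovered reads called 0 members and 0.0% of genes. With the replicate block 0 members passed, against 0.116% of genes, and 4 were at an unadjusted p under 0.05, against 14.1% of genes. Slc25a4 was the 1 member whose overexpression libraries all lay on 1 side of the empty controls, against 4.06% of genes. The median log2 fold change was -0.0303 over members and -0.0141 over all genes. Spi1 itself, at a log2 fold change of 0.81 (SE 0.165), did not pass in the fit without the block (limma, BH adjusted p = 0.9999). Its overexpression libraries all lay above the empty controls, and that fit does not use the pairing of same-numbered libraries.

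Among the other abundant carriers, overexpression and empty controls overlapped. Slc25a3 was at 312, 270 and 326 FPKM in overexpression, against 310, 287 and 327 FPKM in empty controls. Slc25a39 was at 167, 167 and 172 FPKM, against 156, 168 and 162 FPKM in empty controls. For Slc25a39, 1 empty control lay within the overexpression range and the other two below it. Slc25a11 was at 63.7, 63.6 and 68 FPKM in overexpression, against 63.5, 64.1 and 77.6 FPKM in empty controls, and Slc25a28 at 39.5, 41.1 and 43.1 FPKM, against 41.1, 44 and 41.9 FPKM in empty controls.

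Part of the spread in this experiment followed the library number. Both libraries numbered 2 lay outside the other 4 for 20 of 35 carriers, 5 above and 15 below, against 60.9% of all genes, 19.6% above and 41.3% below. Slc25a30 was at 42.5 FPKM in overexpression library 2 and 49.7 FPKM in empty control 2, while the other overexpression libraries had 22.8 and 26.9 FPKM and the other empty controls 21.2 and 27 FPKM. Slc25a37 had the same order, with 35 and 36.6 FPKM in the libraries numbered 2, against 16.9 and 23.4 FPKM in the other overexpression libraries and 18.8 and 25.6 FPKM in the other empty controls. Slc25a44 and Slc25a22, the glutamate carrier, were lowest there, at 8.74 and 13.1 FPKM in overexpression and 9.04 and 14.7 FPKM in empty controls. Elsewhere in the experiment Slc25a44 was at 15 to 21.2 FPKM and Slc25a22 at 20.2 to 28.9 FPKM. Slc25a32 was also lowest in both libraries numbered 2. Libraries numbered 1 lay outside the other 4 for 16 carriers, against 46.2% of genes, and libraries numbered 3 for 6, against 16.5%.

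**Figure D4:**
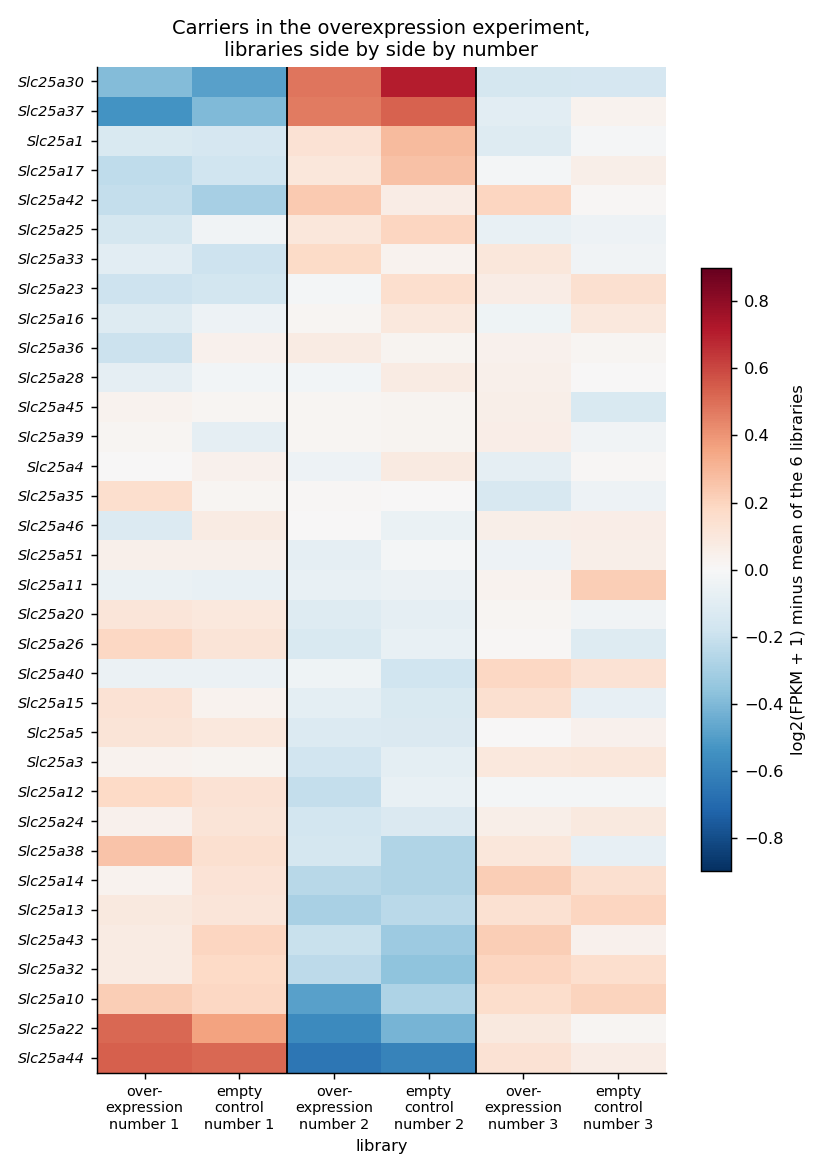
Deviation of each of 34 carriers from its mean over the 6 libraries of the overexpression experiment, in log2(FPKM + 1) units, with same-numbered overexpression and empty control libraries side by side. Within each pair the colours resemble each other, and the libraries numbered 2 carry the highest values of Slc25a30 and Slc25a37 and the lowest of Slc25a44 and Slc25a22.

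The effects of raising and lowering Spi1 were then set against each other, as the overexpression effect minus the knockdown effect over all 12 libraries. Spi1 itself changed unequally, with log2 fold changes of -1.75 in knockdown and 0.81 in overexpression. Of 36 carriers 2 passed, against 4.84% of 11224 genes. For Slc25a4 the difference was 0.43 (SE 0.087, limma, BH adjusted p = 0.0231), from log2 fold changes of -0.09 in overexpression and -0.52 in knockdown. For Slc25a32 it was -0.98 (SE 0.208, limma, BH adjusted p = 0.0262), from 0.02 in overexpression and 1.01 in knockdown. The overexpression effect itself passed for neither gene. Slc25a15 and Slc25a17 did not pass in the difference (limma, BH adjusted p = 0.12 and 0.245). With the replicate block 9 carriers passed, 3 higher and 6 lower, against 41.5% of genes, 12.9% higher and 28.6% lower. Leaving out 1 library lowered the count to 0 for scrambled controls 1 or 2, any knockdown library, empty control 3 or overexpression library 1, where 0.971% to 2.02% of all genes passed. Leaving out all libraries numbered 2 left Slc25a32 alone (limma, BH adjusted p = 0.0372), against 0.712% of all genes.

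Genes that work with the carriers were read from lists of their functions. Their counts stand beside all genes tested in knockdown, of which 17.4% were higher and 8.86% lower, or 30.6% and 14.7% with the replicate block. Leaving out 1 library called 13.0% to 19.7% of all genes in either direction, and leaving out both libraries numbered 2 called 4.0%. The median over all genes was 0.0723. The uncoupling protein gene Ucp2 and the carrier relatives Mtch1 and Mtch2, family members under other names, were tested and 0 passed in knockdown, while 3 passed with the replicate block, against 45.3% of all genes. In the import route through TIM22, 3 of 13 genes were higher and 0 lower in knockdown, near the 17.4% of all genes that were higher, with a median log2 fold change of 0.209. Timm8a1, an intermembrane space chaperone, was at 24.9 ± 2.86 FPKM in knockdown and 16.0 ± 1.36 FPKM in scrambled controls. The TIM22 subunit genes 1810026J23Rik (Timm29) and Agk were at 14.3 ± 0.743 and 6.99 ± 0.383 FPKM in knockdown and at 9.53 ± 0.782 and 5.69 ± 0.079 FPKM in scrambled controls. With the replicate block 9 of the 13 were higher and 1 lower, against 30.6% and 14.7% of all genes.

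Other solute routes of the mitochondrial membranes moved both ways, with 3 of 20 genes higher and 3 lower in knockdown, against 17.4% and 8.86% of all genes. The 6 calls fell to 3 without knockdown library 2 or 3 and to 1 without the libraries numbered 2. The calcium route genes Ccdc109b and Slc8b1 were among the lower ones, with log2 fold changes of -0.49 and -0.43 (limma, BH adjusted p = 0.004 and 0.00507). Abcb10, a transporter of haem metabolism, and the serine carrier Sfxn1 were among the higher ones, at 0.34 and 0.23 (limma, BH adjusted p = 0.0344 and 0.0357). Mitochondrial one-carbon enzymes, which use the folate that Slc25a32 is known to import, had 0 of 8 tested genes past the threshold, against 26.3% of all genes, and a median of 0.0334. With the replicate block 2 of these were higher, Shmt2 and Mthfd1l, and 2 lower, Mthfd2 and Aldh1l2 (adjusted p = 0.0396, 0.03, 0.0174 and 0.0312), where 30.6% of all genes were higher and 14.7% lower. Median-of-ratios scaling and limma-voom called 1 one-carbon gene each, where 24.1% and 29.5% of all genes passed. No filter and a filter of 5 FPKM also called 1 each.

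Enzymes supplied by the carriers were read by pathway. In the carnitine shuttle and fatty acid oxidation 4 of 11 genes were higher and 0 lower in knockdown, against 17.4% and 8.86% of all genes. Cpt2, which releases fatty acids from carnitine, was at 13.3 ± 1.4 FPKM in knockdown and 6.75 ± 0.61 FPKM in scrambled controls. Acadm, Acads and Etfa were the others. Under the replicate block 7 genes were higher and 1 lower, against 30.6% and 14.7% of all genes, and without the libraries numbered 2 only 1 passed. The carrier of the same route, Slc25a20, did not pass. Of 21 genes of the citric acid cycle and malate-aspartate shuttle, 2 were higher, Got2 and Suclg2, and 0 lower, a share below the 17.4% of all genes. With the block 7 were higher, near the 30.6% of all genes. Without scrambled control 1 or 2 the count was 1, and without knockdown library 2 or 3, or the libraries numbered 2, it was 0. The count was 1 with no filter and 5 with limma-voom, which called 29.5% of all genes. Of 14 haem and iron-sulphur genes, Nfs1 and Cpox were higher and Alas1, the first enzyme of haem synthesis, and Iscu were lower, against 17.4% and 8.86% of all genes. The 4 calls became 2 with median-of-ratios scaling, 1 without scrambled control 1 or 2 or knockdown library 1 or 3, and 0 without the libraries numbered 2. With the block 5 were higher and 2 lower, against 30.6% and 14.7% of all genes. Alas1 was at 25.4 ± 1.37 FPKM in knockdown and 35.5 ± 0.487 FPKM in scrambled controls.

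ATP synthase subunits use the phosphate and ADP that Slc25a3, Slc25a4 and Slc25a5 bring in. Of 15 such genes 0 passed in knockdown, against 26.3% of all genes, with a median of 0.168. Under the block 8 were higher, against 30.6% of all genes. Leaving out knockdown library 2 gave 1, where 15.2% of all genes passed, and limma-voom gave 1, where 29.5% did. A filter of 5 FPKM and the trend and robust options of limma gave 1 each, and no filter gave 3. For these filter and option settings the share of all genes is not reported here. Among 13 tested regulators of mitochondrial biogenesis 5 were higher and 1 lower, against 17.4% and 8.86% of all genes. The 6 calls fell to 3 without scrambled control 2 or 3 or knockdown library 1 or 2, to 2 without knockdown library 3 and to 0 without the libraries numbered 2. Peo1, Gabpa, Polg, Tfam and Myc were higher, with log2 fold changes of 0.29 to 0.47, and the nuclear receptor gene Esrra was lower at -0.25 (limma, BH adjusted p = 0.0259). In overexpression 0 genes passed in each of these lists, where 0.0% of all genes did.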

How the data were processed

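RNA was measured in 12 libraries of BV2 cells in 4 groups of 3, grouped by the treatment labels and numbered by the titles. Per the labels' protocols, polyA RNA was prepared with the TruSeq v2 kit, a chemistry without strand information, and single reads of 100 bases were taken. The values, deposited by the authors in 2 tables with 24062 entries each, are FPKM. The unit was read from the values, as whole reads were recovered for 17838 of 17838 genes above 0 within 0.01 read. The submitters' processing notes list STAR 2.5.2a, featureCounts, DESeq2 1.14, CASAVA 1.8.2 and bcl2fastq with the build mm10 and no roles. The gene annotation is not given in the sources used here.

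On log2(FPKM + 1), limma 3.58.1 (R 4.3.3) was fitted to each experiment over all genes averaging 1 FPKM or more, with Benjamini-Hochberg adjustment and a threshold of 0.05. The difference was an interaction over 12 libraries with 1 shared spread. A fold change on this scale understates that of low genes. Entries with repeated symbols, 4 in all, were left out. Symbols were placed with GENCODE release M21 on GRCm38. Alternatives were other pseudocounts (0.1 and 0.5), filters (none, 5 FPKM), median-of-ratios scaling, limma options, limma-voom on recovered reads, a replicate block and left-out libraries. The code was tested on simulated data.

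Same-numbered libraries deviated together from their group means, with correlations across genes of 0.397, 0.54 and 0.345 for knockdown and 0.791, 0.845 and 0.513 for overexpression. Each exceeded 0.1, so the numbers, which come from the titles, were taken to pair the libraries in the replicate block. The limma fits without the block did not use this pairing, and their intervals and adjusted p leave it out.

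The members and gene lists were chosen with earlier results of these data known. Values per library are given for carriers that passed, for the 5 highest and for the highest of each further role. Up to 4 passing genes per list were named, or 2 that did not pass, and further names were chosen after their values were seen. Tomm70 was found as Tomm70a, and Ly6g was not found. Some genes counted in the totals are not reported here by name or drawn.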

Additional observations from a re-analysis of the deposited data

Results flagged for a closer look

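Effects under opposite treatments of Spi1 differed by the test of the difference itself for Slc25a4 and Slc25a32. Spi1 had log2 fold changes of -1.75 in knockdown and 0.81 in overexpression, and the part of this unequal change was not tested. The call was lost in 8 of 21 alternatives for Slc25a4 and in 7 of 21 for Slc25a32 (limma, BH adjusted p up to 0.116 and 0.0763). For Slc25a4 the overexpression effect minus the knockdown effect was 0.4282 on the log2(FPKM + 1) scale, with the knockdown libraries below all others. For Slc25a32 it was -0.9849, with the scrambled controls below all others. Levels of both genes in the empty controls, 323 ± 8.35 FPKM for Slc25a4 and 6.65 ± 1.52 FPKM for Slc25a32 (SD, n = 3), were nearer to the scrambled controls for Slc25a4 and nearer to knockdown for Slc25a32. What sets the scrambled controls apart for Slc25a32 was not tested.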

How the results depend on the processing

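Slc25a32, Slc25a15 and Slc25a4 kept their direction and stayed past the threshold in knockdown under every alternative that tested them, with the highest adjusted p (limma, BH) at 0.0357, 0.0492 and 0.0437, all without the libraries numbered 2. Slc25a15 is not tested at a filter of 5 FPKM. Slc25a17 lost its call in 8 of 15 alternatives, including no filter (adjusted p = 0.0546) and without the libraries numbered 2 (0.168). The cause was not tested. With the replicate block, which pairs same-numbered libraries, 8 carriers passed in knockdown and 9 in the difference, against 4 and 2 without it, and 0 in overexpression as before. Over all genes the block called 5081 in knockdown, 13 in overexpression and 4658 in the difference, against 2945, 0 and 543. Without the libraries numbered 2 the difference had 1 carrier, against 0.712% of all genes.

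The median log2 fold change of tested carriers in knockdown was 0.0406. It was 0.000571 with no filter, which brings in carriers near 0, and -0.0314 with median-of-ratios scaling. Leaving out 1 library gave 0.00227 to 0.0411 and 3 to 5 of 36 carriers, against 13.0% to 19.7% of all genes. In overexpression the median, -0.0303, ran from -0.05 to 0.0625 when 1 library was left out, with 0 carriers throughout. In the difference it was -0.0796, 0.00268 with median-of-ratios scaling, and -0.0724 to -0.00731 with 1 library left out. There the count ran from 0 to 2 of 36 carriers, against 0.971% to 5.12% of all genes. No result reversed its direction past the threshold. Carriers with a mean under 1 FPKM were not tested. Of these Slc25a53 still had 25 to 78 reads per library, about as many as Slc25a47, tested in knockdown, at 20 to 74.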

Other observations

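Levels of some carriers differed between the experiments. Slc25a45, whose substrate is little characterised, was at 15.9, 15.7 and 16.1 FPKM in overexpression and 15.7, 15.8 and 14 FPKM in empty controls, while it was at 10.7 to 11.9 FPKM in knockdown and 11.4 to 12.8 FPKM in scrambled controls. Slc25a24 was highest in the scrambled controls, with 26.5 to 31 FPKM in overexpression and 27.1 to 32.3 FPKM in empty controls, against 31.7 to 34.1 FPKM in knockdown and 36.3 to 39.4 FPKM in scrambled controls, and its knockdown range overlapped that of the empty controls. These are levels from separately deposited tables, and a shift between experiments cannot be told apart from a difference between the constructs.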
